A study of Mus musculus with 8 samples.

Results

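The AP-1 family genes were followed in sorted luminal cells of the mouse mammary gland. The family was taken as 9 genes, namely Jun, Junb, Jund, Fos, Fosb, Fosl1, Fosl2, Atf3 and Maff, and its members were the rows of the deposited count table whose Entrez Gene ID belongs to these symbols. All 9 were among the 24594 genes of the table. The question was how the family differs between luminal progenitors and differentiated luminal cells of the virgin gland. RNA was sequenced in bulk from 4 libraries of luminal progenitors (LP), the c-Kit-high luminal cells, and from 4 libraries of mature luminal cells (M), the c-Kit-low luminal cells. Kit encodes c-Kit, a surface receptor for stem cell factor. All libraries came from wild type C57BL/6J mice with no treatment. In both fractions the glands were dissociated with enzymes (collagenase and hyaluronidase, then trypsin and dispase), the cells were sorted with antibodies, and the RNA was amplified as cDNA before library preparation. The study's methods give fewer biological replicates per condition for RNA sequencing than the libraries deposited here, and all 8 were used. The sources used here do not say how many mice gave each library, so p-values measure only the spread between these libraries.

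AP-1 is a dimeric transcription factor built from basic leucine zipper (bZIP) proteins. JUN proteins pair with each other or with FOS and ATF related partners, whereas FOS proteins need a partner from outside the FOS proteins, such as JUN, to bind DNA. The classical site bound by JUN and FOS is the TPA response element, and dimers with an ATF partner prefer the related cAMP response element. Many of the genes are immediate-early genes, whose mRNA appears soon after growth factor, cytokine or stress signals through MAP kinases and is short-lived. In mammary epithelium AP-1 is known for its part in growth signalling, in involution and in the response to stress.

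The promoters of the family were searched for such elements, since AP-1 genes can be bound by AP-1 and ATF factors themselves. The RefSeq promoter table of the build GRCm38.p6 held 10 entries for 8 of the 9 members, and Fosl1 was not matched. In the 250 bases before each start, the searched motifs were TGACTCA (the TPA response element), TGACGTCA (the cAMP response element), the variants TGACATCA and TTACGTCA, and the half-site TGACG, each on both strands. The half-site is contained in TGACGTCA and, read on the other strand, in TTACGTCA. TATAAA was searched on the sense strand, and the CArG box, to which SRF binds, on both. The stretches below are the last 130 bases before the start of 4 members that were higher in M (Fos, Jun, Atf3 and Maff, its second entry) and of 2 that did not pass the test (Junb and Jund), written 5′ to 3′ on the strand of the gene. Fosl2, which was also higher in M, held none of the motifs searched. Capitals mark TGACG, TGACGTCA, TGACATCA and TTACGTCA.
Fos, chr12:85473760-85473889, forward: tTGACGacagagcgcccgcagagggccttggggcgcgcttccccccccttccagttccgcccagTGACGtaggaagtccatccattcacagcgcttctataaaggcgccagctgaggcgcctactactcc
Jun, chr4:95052223-95052352, reverse: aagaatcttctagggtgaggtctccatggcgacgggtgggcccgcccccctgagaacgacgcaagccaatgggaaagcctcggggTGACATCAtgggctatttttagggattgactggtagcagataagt
Atf3, chr1:191183334-191183463, reverse: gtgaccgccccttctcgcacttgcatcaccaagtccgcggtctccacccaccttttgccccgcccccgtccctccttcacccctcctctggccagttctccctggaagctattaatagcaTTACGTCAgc
Maff, chr15:79347390-79347519, forward: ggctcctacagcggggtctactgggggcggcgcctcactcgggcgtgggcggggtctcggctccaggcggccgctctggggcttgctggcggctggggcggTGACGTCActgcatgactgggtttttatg
Junb, chr8:84978749-84978878, reverse: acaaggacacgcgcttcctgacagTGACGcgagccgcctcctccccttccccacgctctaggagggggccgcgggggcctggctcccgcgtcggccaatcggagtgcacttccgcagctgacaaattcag
Jund, chr8:70697609-70697738, forward: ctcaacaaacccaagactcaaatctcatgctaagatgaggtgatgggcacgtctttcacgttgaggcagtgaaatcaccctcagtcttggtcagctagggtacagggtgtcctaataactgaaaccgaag

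The half-site TGACG was found in 6 of the 10 entries, which belong to 5 of the 8 matched members (Fos, Fosb, Junb, Atf3 and Maff). Over all 32841 promoter entries 17.8% held it. The first Maff entry held none of the motifs searched. The full TGACGTCA element stood 29 bases before the second Maff start, and 1.55% of all entries held it. TGACATCA stood 45 bases before the start of Jun and 45 bases before the third start of Maff, and was in 2.93% of all entries. TTACGTCA, held by 0.448% of all entries, stood 10 bases before the start of Atf3. TGACTCA was found in none of the 10 entries and in 4.46% of all entries, and the CArG box in none and in 1.47%. Sites outside the searched window could not be found, so these absences do not show that Fos or another member lacks such a site. The TATAAA motif stood 33 bases before the start of Fos and was in 7.59% of all entries. The family's entries were richer in G and C than others, with a median of 62.6% against 52.4% over all entries, and the part of base composition in these matches was not tested. Such a match describes the letters of a window and is not evidence of binding.

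The libraries held between 4410049 and 7791593 counts on genes. The sorted fractions carried their defining markers. All 6 mature luminal markers listed (Esr1, Pgr, Prlr, Foxa1, Areg and Cited1) were higher in M, and 5 of 6 progenitor markers (Kit, Elf5, Cd14, Aldh1a3, Csn3 and Ltf) were higher in LP. M replicate 3 stood apart, lying nearest to LP on the first principal component, which held 50.0% of the variance. It had the highest summed level of progenitor markers among the M libraries, 2656 CPM (reads of a gene relative to the normalized size of its library) against 507, 955 and 1991 in the others and at least 25615 in LP. M replicate 3 also stood out by its heat-shock genes, so results of the AP-1 members that moved without it, or without another single library, are given both ways.

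Of the 9 members, 8 passed the filter on low counts and were tested among 12816 genes, and Fosb was not. Fold changes and adjusted p-values come from edgeR (quasi-likelihood test, p-values adjusted over the whole tested table by Benjamini-Hochberg), and a log2 fold change is LP minus M. Jun, Fos, Fosl2, Atf3 and Maff, 5 of the 8 tested members, were higher in M at an adjusted p-value under 0.05, and 0 were higher in LP. Over all genes tested, 13.8% of genes were higher in M and 10.9% were higher in LP. The LP and M libraries did not overlap for the same 5 members, with every M library above every LP library, and 15.5% of all tested genes separated in that way. The median log2 fold change of the 8 tested members was -1.09, against -0.00 over all tested genes. In bulk libraries, a higher level in more cells and more RNA in each cell cannot be told apart. Fos, Jun and Atf3 belong to the mature gene set that the study drew from these same libraries, so their direction is not independent of that set.

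Among the JUN genes, Jun rose most. Jun (Entrez 16476) encodes c-JUN, the main partner of FOS proteins and a substrate of JUN N-terminal kinases, and is a gene of 1 exon on the reverse strand (mm10 chr4:95049036-95052222). Its level was 231, 174, 347 and 230 CPM in LP replicates 1 to 4 and 1326, 1077, 1143 and 502 CPM in M replicates 1 to 4. The groups did not overlap, and M replicate 4 was well below the other M libraries. The mean was 245 ± 72.7 CPM in LP and 1012 ± 356 CPM in M (SD, n = 4 each), a 4.12-fold higher level in M with a 95% interval from 2.55 to 6.66 (log2 fold change -2.04, SE 0.313, adjusted p = 0.00140). The two-sided exact permutation test gave p = 0.0286, the smallest value possible with 4 against 4 libraries. Without M replicate 4 the log2 fold change of Jun was -2.24.

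Junb (Entrez 16477, chr8:84976909-84978748, reverse, 1 exon) encodes a JUN protein that activates transcription more weakly than c-JUN and can oppose it. Its level was 260, 282, 331 and 359 CPM in LP and 622, 455, 342 and 380 CPM in M. The groups overlapped, since M replicate 3 lay below LP replicate 4. The 308 ± 45.2 CPM of LP and the 450 ± 124 CPM of M (SD, n = 4 each) differed by a log2 fold change of -0.55 (95% interval -1.01 to -0.08), which did not pass after adjustment (SE 0.210, adjusted p = 0.0834, edgeR). The exact permutation test of Junb gave p = 0.0571. Without M replicate 3 the log2 fold change was -0.62 and the adjusted p-value 0.0430, and without M replicate 1 they were -0.33 and 0.235. Junb was higher in M in each of the 4 pairs of libraries with the same replicate number, by 2.39, 1.61, 1.03 and 1.06 times.

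Jund (Entrez 16478, chr8:70697739-70700616, forward, 1 exon) encodes the JUN protein that is usually present in resting cells and little induced by signals. It was at 69.3, 72.3, 86.5 and 118 CPM in LP and at 74.7, 59.6, 102 and 58.9 CPM in M. These values overlapped, and the highest library of each fraction was LP replicate 4 and M replicate 3. The means were 86.6 ± 22.4 CPM in LP and 73.9 ± 20.4 CPM in M (SD, n = 4 each). No difference was detected (log2 fold change 0.23, 95% interval -0.29 to 0.75, adjusted p = 0.524, edgeR). Without LP replicate 4 the value was 0.04, and without M replicate 3 it was 0.46.

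**Figure D1:**
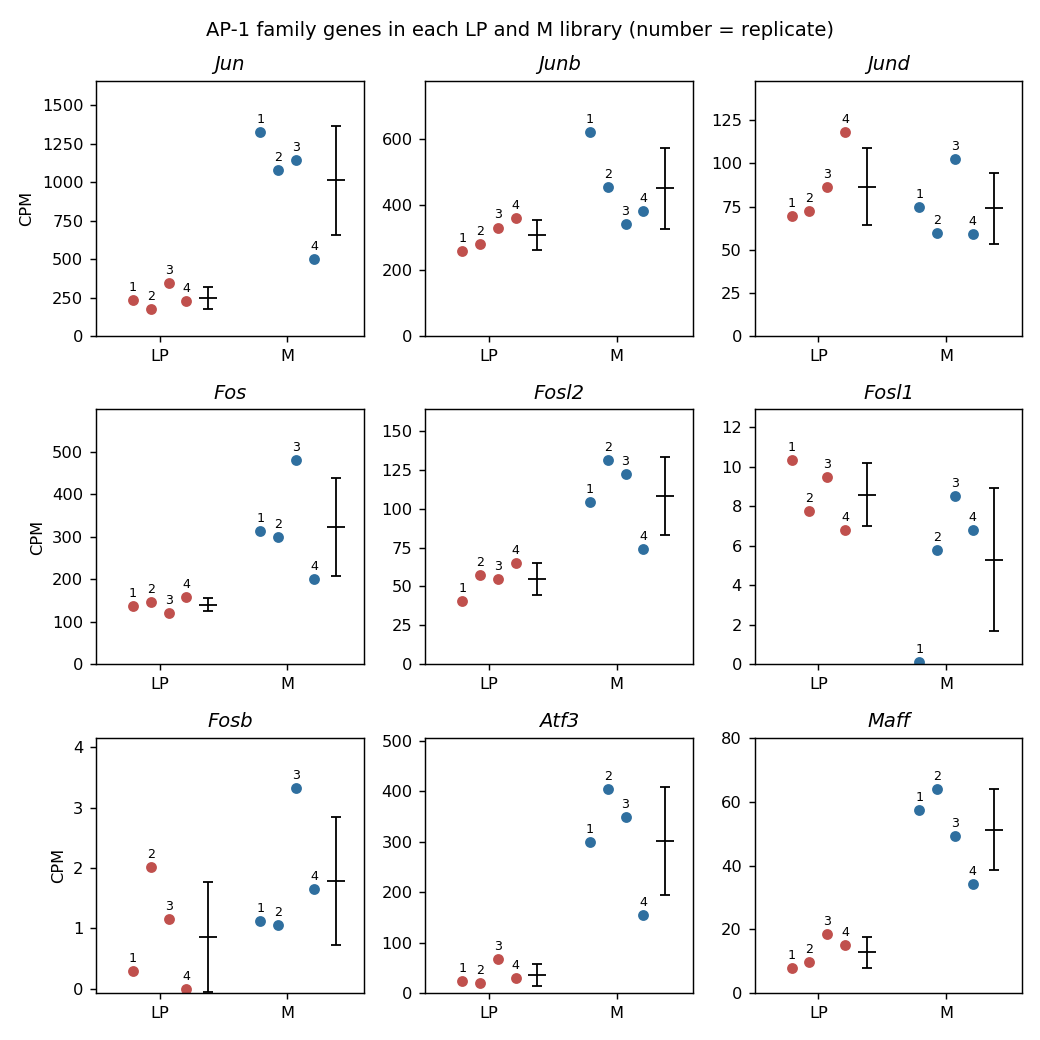
Level of each AP-1 family gene in CPM (reads relative to normalized library size, y axis) in the LP and M libraries (x axis), with each point a library numbered by its replicate and the bars giving mean and SD of 4 libraries. For Jun, Fos, Fosl2, Atf3 and Maff every M library lies above every LP library and M replicate 4 is the lowest of M, whereas Junb, Jund, Fosl1 and Fosb overlap.

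Of the FOS genes, Fos and Fosl2 rose in M. Fos (Entrez 14281, chr12:85473890-85477274, forward, 4 exons) encodes c-FOS, a textbook immediate-early protein. Its level was 136, 147, 122 and 158 CPM in LP and 314, 300.5, 479 and 201 CPM in M. LP libraries lay close together, and in M replicate 3 was high and replicate 4 low. Fos averaged 141 ± 15.5 CPM in LP and 324 ± 115 CPM in M (SD, n = 4 each), 2.3004-fold higher in M with a 95% interval from 1.59 to 3.32 (log2 fold change -1.20, SE 0.240, adjusted p = 0.00525, edgeR). The exact permutation test gave p = 0.0286. Without M replicate 3 the log2 fold change of Fos was -0.92, and without M replicate 4 it was -1.35.

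Fosl2 (Entrez 14284, chr5:32136472-32157840, forward, 4 exons) encodes FRA-2, a FOS protein without the strong activation domain of c-FOS. It was at 40.7, 57.6, 54.6 and 65.3 CPM in LP and at 104, 131, 122 and 74.1 CPM in M. The groups did not overlap, but only a small gap separated M replicate 4 from LP replicate 4. Fosl2 averaged 54.6 ± 10.3 CPM in LP and 108 ± 25.1 CPM in M (SD, n = 4 each), 1.97-fold higher in M with a 95% interval from 1.42 to 2.75 (log2 fold change -0.98, SE 0.216, adjusted p = 0.00816, edgeR). The exact permutation p was 0.0286.

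Fosl1 (Entrez 14283, chr19:5447698-5455938, forward, 4 exons) encodes FRA-1, the relative of FRA-2 that is often raised in invasive tumour cells. In the RefSeq annotation its span overlaps Ccdc85b, and how reads in the shared stretch were counted is not given in the sources used here. It was low, at 10.3, 7.76, 9.46 and 6.80 CPM in LP and 0.141, 5.78, 8.52 and 6.78 CPM in M. M replicate 1, the deepest library, held 1 read of Fosl1, whereas the other M libraries held 22, 59 and 45 reads. The mean of 8.58 ± 1.59 CPM in LP and of 5.30 ± 3.62 CPM in M (SD, n = 4 each) gave a log2 fold change of 0.69 with a wide 95% interval, from -0.96 to 2.35 (adjusted p = 0.540, edgeR). Without M replicate 1 it was 0.30 (adjusted p = 0.643), and without M replicate 3 it was 1.06 (adjusted p = 0.388).

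Fosb (Entrez 14282, chr7:19302696-19310118, reverse, 4 exons) encodes an immediate-early FOS protein known also for a stable short form. Its counts were 2, 14, 7 and 0 reads in LP and 8, 4, 23 and 11 reads in M, or 0.290, 2.01, 1.16 and 0 CPM in LP and 1.12, 1.05, 3.32 and 1.66 CPM in M. The 0 reads of LP replicate 4 allow a level of up to 0.416 CPM, taking 3 reads as the limit, which covers counting error only. M replicate 3 was highest and LP replicate 4 lowest, and the groups overlapped. With no filter on low counts, Fosb had a log2 fold change of -0.99 (adjusted p = 0.552, edgeR), so no difference could be detected at this depth.

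Atf3 showed the widest difference of the 8 tested members. It encodes an ATF protein induced by many kinds of cell stress that pairs with JUN proteins and can repress transcription (Entrez 11910, chr1:191170296-191183333, reverse, 4 exons). Its level was 23.5, 18.8, 67.4 and 29.8 CPM in LP and 299.8, 405, 348 and 155 CPM in M. The groups did not overlap, LP replicate 3 stood above the other LP libraries and M replicate 4 below the other M libraries. The mean rose from 34.9 ± 22.1 CPM in LP to 302 ± 107 CPM in M (SD, n = 4 each), 8.67-fold with a 95% interval from 4.49 to 16.7 (log2 fold change -3.12, SE 0.430, adjusted p = 0.000859, edgeR). The exact permutation test of Atf3 gave p = 0.0286, and without LP replicate 3 the log2 fold change was -3.64.

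Maff (Entrez 17133, chr15:79346621-79359078, forward, 3 exons) encodes a small MAF protein, a bZIP factor that lacks an activation domain. It was at 7.70, 9.63, 18.6 and 14.98 CPM in LP and at 57.5, 64.1, 49.4 and 34.4 CPM in M. The groups did not overlap, and LP replicate 3 was again the highest of LP and M replicate 4 the lowest of M. Maff averaged 12.7 ± 4.98 CPM in LP and 51.3 ± 12.8 CPM in M (SD, n = 4 each), 4.03-fold higher in M with a 95% interval from 2.47 to 6.57 (log2 fold change -2.01, SE 0.319, adjusted p = 0.00169, edgeR). The exact permutation p was 0.0286.

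**Figure D2:**
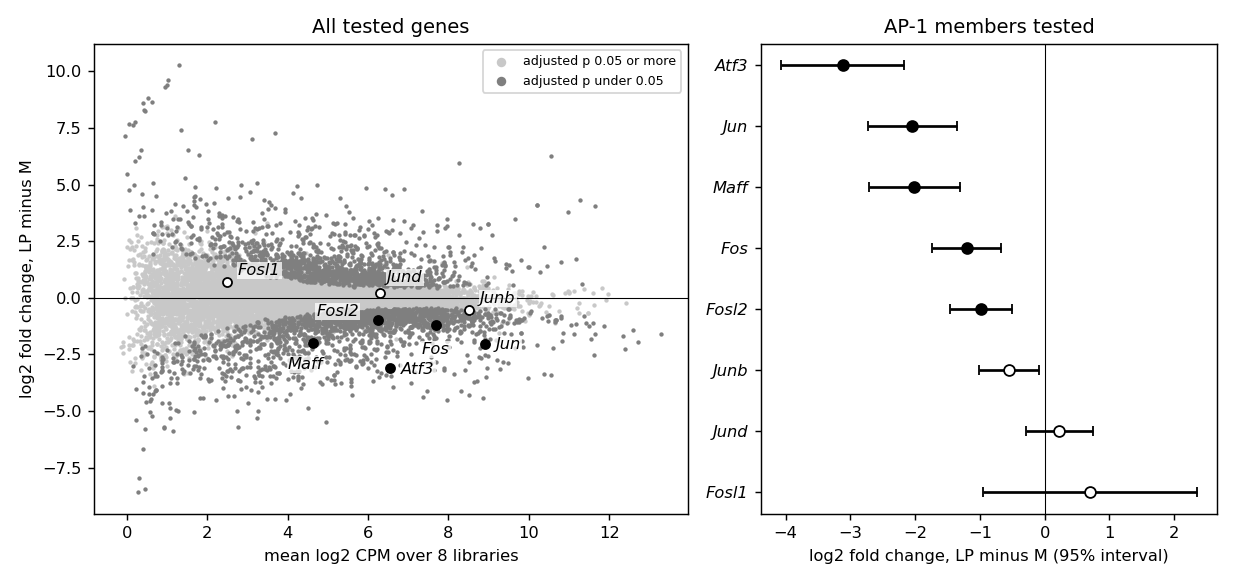
Left, log2 fold change (LP minus M, y axis) against mean log2 CPM over 8 libraries (x axis) for all 12816 tested genes, with the AP-1 members as large points. Right, the members' log2 fold changes with 95% intervals, filled where the adjusted p-value was under 0.05, from -3.12 for Atf3 to -0.98 for Fosl2, and open for Junb, Jund and Fosl1.

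Levels were compared between members only per length, as CPM per kilobase of exon. Reads that cross introns may be lost for members of several exons, which would lower these against Jun, Junb and Jund. On that scale Junb was the highest member in LP, with 170.2 ± 25.0 (mean and SD, n = 4), followed by Jun with 77.0 ± 22.8, Fos with 66.7 ± 7.36 and Jund with 51.9. In M the order changed to Jun with 317 ± 112, Junb with 249 ± 68.5, Fos with 153 ± 54.8 and Atf3 with 140.3. Jun and Fos in LP, and Jun and Junb as well as Fos and Atf3 in M, differed by less than the larger of their SDs, whereas Junb and Jun in LP, Fos and Jund in LP, and Junb and Fos in M differed by more. Fosl2, Maff and Fosl1 were lower, with 8.35, 5.55 and 4.60 in LP and 16.5, 22.4 and 2.85 in M, and Fosb was lowest in both fractions. For Jund the exon length used, 1668 bases, was shorter than the RefSeq span given above. If the counts cover the whole span, its level per length is overstated, which was not tested.

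The JUN genes thus changed unequally. Jun made up 25.6 ± 5.17% of the summed level per length of the 3 JUN genes in LP and 50.9 ± 8.46% in M (SD, n = 4 each), with a lowest value of 39.0% in M against a highest of 31.7% in LP. Junb went from 57.1 ± 3.48% to 41.5 ± 8.70% and Jund from 17.3 ± 2.46% to 7.54 ± 2.25%. All these shares depend on the exon length used for Jund. Ratios within a library do not depend on its scaling. After the values had been seen, 6 pairs of members were compared by the two-sided exact permutation test of their log2 ratio, with adjustment over the 6 pairs. The log2 ratio of Jun to Junb, by CPM, was -0.36 in LP and 1.12 in M (exact p = 0.0286, adjusted p = 0.0429), and that of Jun to Jund was 1.49 and 3.72 (the same p-values). The ratio of Junb to Jund, 1.85 in LP and 2.60 in M, did not pass (exact p = 0.114, adjusted p = 0.137).

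Among the FOS genes, Fos held 83.4 ± 1.81% of the summed level per length in LP and 88.1 ± 2.47% in M (SD, n = 4 each), and Fosl2 held 10.4% and 9.85%. The log2 ratio of Fos to Fosl2, by CPM, was 1.37 in LP and 1.55 in M, a difference of -0.17 that was within the spread between libraries (exact p = 0.429). Fosl1 held 5.87 ± 1.55% in LP and 1.75 ± 1.33% in M. The log2 ratio of Fos to Fosl1 averaged 3.997 in LP and 6.41 in M, and that of Fosl2 to Fosl1 was 2.62 and 4.87 (exact p = 0.0286 and adjusted p = 0.0429 for each). The ratio of Fos to Fosl1 was at most 4.48 in LP, at least 4.83 in M and highest, 9.44, in M replicate 1, with its 1 read of Fosl1. Without that library the M means were 5.41 for Fos to Fosl1 and 3.87 for Fosl2 to Fosl1, and the differences, LP minus M, shrank from -2.42 to -1.41 and from -2.25 to -1.25.

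**Figure D3:**
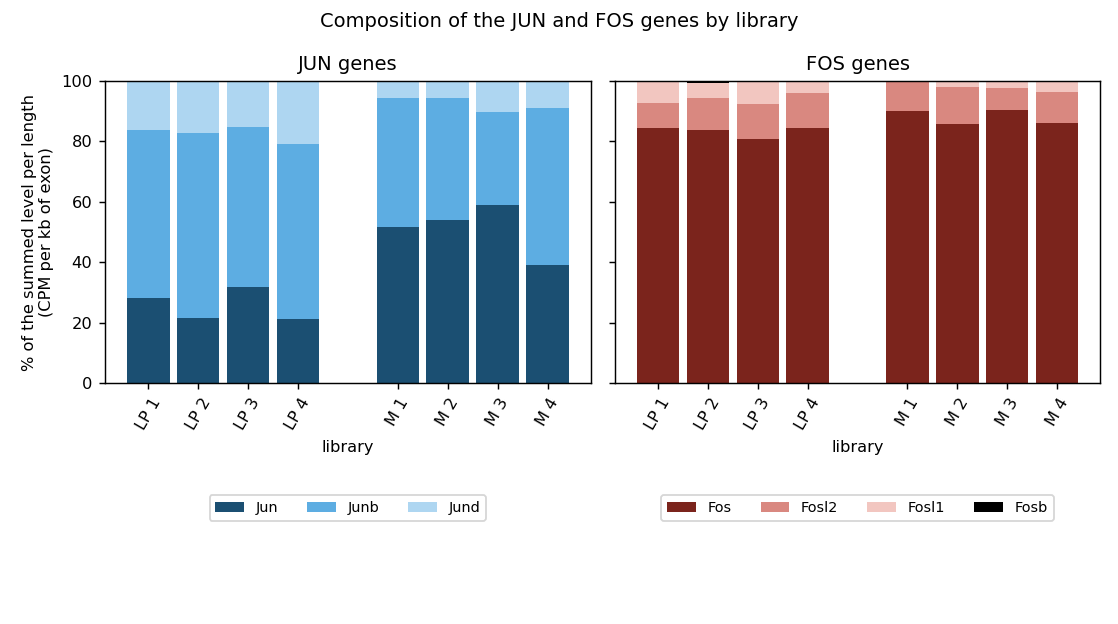
Share of each gene in the summed level per length (y axis, % of CPM per kb of exon) of the 3 JUN genes (left) and the 4 FOS genes (right) in each library (x axis). Jun takes 39.0% to 58.9% of the JUN genes in M and 21.1% to 31.7% in LP, and Fos takes most of the FOS genes in every library.

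Within M, replicate 4 was the lowest library for 6 of the 9 members (66.7%) and for all 5 of those higher in M. Over all 12816 tested genes M replicate 4 was the lowest M library for 23.8%, and over the genes higher in M for 27.0%. Summed over the 9 members, the level was 2799, 2499, 2599 and 1414 CPM in M replicates 1 to 4 and 779, 770.4, 1037 and 982 CPM in LP replicates 1 to 4, so that M replicate 4 lay between the other M libraries and LP. Relative to the mean log2 CPM of M, that library was -0.92 for Jun, -0.87 for Atf3, -0.62 for Fos, -0.54 for Maff and -0.51 for Fosl2. Progenitor markers summed to 1991 CPM in M replicate 4, below the 2656 CPM of replicate 3 but above the 507 and 955 CPM of replicates 1 and 2. Its summed level of mature markers, 6145 CPM, was the highest, but most of it was Prlr (5442 CPM). Prlr and Pgr were highest in M replicate 4, and Esr1, Foxa1 and Cited1 lay within the range of the other M libraries. Areg was lowest there, at 3.01 CPM against 38.8, 48.3 and 25.0 CPM in M replicates 1 to 3. The part of cell composition in its AP-1 levels was not tested.

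The highest M library was not the same for all members. It was replicate 3 for Fos, Fosb, Fosl1 and Jund, replicate 2 for Fosl2, Atf3 and Maff, and replicate 1 for Jun and Junb. In LP, replicate 3 was highest for Jun, Atf3 and Maff and lowest for Fos. The SD of log2 CPM had a median of 0.319 in LP and 0.451 in M over the 8 tested members, against 0.338 and 0.456 over all tested genes. Single members lay away from these medians. Fos had an SD of 0.16 in LP, lower than most genes (percentile 14.6), and 0.51 in M. Atf3 had an SD of 0.80 in LP (percentile 87.1), and Fosl1 of 2.02 in M (percentile 97.7).

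**Figure D4:**
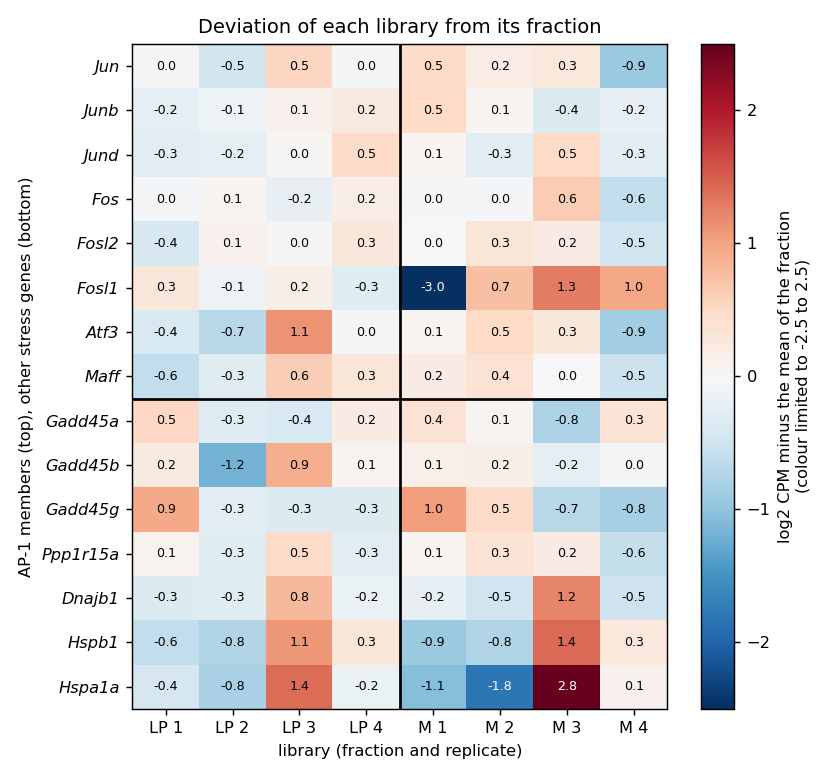
Deviation of each library (x axis) from the mean log2 CPM of its fraction for 8 AP-1 members (upper rows) and 7 other stress genes (lower rows), with colour and printed values in log2 units. M replicate 4 is low for Jun (-0.92), Atf3 (-0.87) and Fos (-0.62), whereas Hspa1a, Hspb1 and Dnajb1 are high in M replicate 3 (2.76, 1.41 and 1.22).

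Across the 8 libraries, the genes outside the family whose log2 CPM most resembled the mean profile of the 8 tested members were Klf6 (Pearson r = 0.977), Slc5a3 (0.976), Tubb5 (0.973), Czib (0.969) and Phax (0.969), and 131 genes reached 0.9. The libraries form 2 clusters, the fractions, so these values mostly describe the difference between LP and M. Klf6, a zinc finger factor induced early after signals, was at 391, 337, 590 and 494 CPM in LP and 1491, 1420, 1827 and 691 CPM in M. Its lowest M library was replicate 4, as for the members higher in M. After each fraction's mean was subtracted, the most similar genes were Plekhm2 (0.998), Frs2 (0.986), Ammecr1 (0.980), Fas (0.979) and Atg14 (0.970), and 51 genes reached 0.9. Of the members, Fosl2 (0.961), Maff (0.954), Atf3 (0.943), Jun (0.937) and Fos (0.922) were close to the mean profile over 8 libraries, while Junb (0.707), Jund (0.0890) and Fosl1 (-0.401) were not. After subtraction of the fraction means r was Maff 0.874, Fosl2 0.851, Atf3 0.839, Jun 0.823, Jund 0.715, Fos 0.651, Junb 0.384 and Fosl1 -0.118. Each of these members is itself part of the mean profile, which raises its r. With the fraction means subtracted, Jun and Atf3 (0.867) and Atf3 and Maff (0.869) still moved together across the libraries, more than Fos and Atf3 (0.271).

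Of the 11 other bZIP factors listed, 7 were tested and 2 were higher in M, against 13.8% of all tested genes. Mafk, a small MAF like Maff, was at 28.9, 17.3, 34.7 and 17.1 CPM in LP and 83.7, 63.8, 71.6 and 48.7 CPM in M (log2 fold change -1.45, adjusted p = 0.00423, edgeR). Atf2, an ATF partner of c-JUN, had a log2 fold change of -0.58 (adjusted p = 0.0209). Batf, a partner of JUN proteins best known from lymphocytes, had a log2 fold change of -0.80 that did not pass (adjusted p = 0.0926).

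Few of the kinases and factors upstream of AP-1 passed the test at the level of mRNA. Of 31 listed genes (MAP kinases, the kinases above them, ribosomal S6 kinases, ternary complex factors, SRF, MEF2 factors and CREB), 28 were tested, 1 was higher in LP and 0 in M (10.9% and 13.8% over all tested genes), with a median log2 fold change of 0.01. The LP and M libraries did not overlap for 3 of the 28 with LP higher and for 2 with M higher (14% and 15.5% over all tested genes). The gene that passed was Map3k1, a kinase that acts above the JUN N-terminal kinases. It was at 1088, 988, 1421 and 1338 CPM in LP and 485, 492, 399 and 390 CPM in M, 2.74-fold higher in LP (log2 fold change 1.45, SE 0.184, adjusted p = 0.000607, edgeR). Map3k1 therefore had the opposite direction to Jun. mRNA levels do not report the activity of these kinases.

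Of 10 regulators of AP-1 turnover, all tested, 2 were higher in LP and 0 in M (10.9% and 13.8% over all tested genes), with a median log2 fold change of 0.09. Fbxw7, which directs c-JUN and other proteins to ubiquitination, had a log2 fold change of 1.24 (adjusted p = 0.000859, edgeR). Zfp36l2, which binds AU-rich elements and promotes mRNA decay, had one of 1.18 (adjusted p = 0.00742). Its relatives Zfp36 and Zfp36l1 had values of -0.11 and 0.06 and did not pass.

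Of 21 listed genes known as AP-1 targets, 13 were tested, 2 were higher in M and 2 in LP, a share near that over all tested genes (13.8% and 10.9%), with a median log2 fold change of -0.76. Vegfa, the angiogenic growth factor, had a log2 fold change of -2.52 (adjusted p = 0.00371) and Hbegf, an EGF receptor ligand, of -1.14 (adjusted p = 0.0481), both higher in M. Cd44, the hyaluronan receptor, had one of 1.10 (adjusted p = 0.00937) and Timp1, a protease inhibitor, of 1.74 (adjusted p = 0.0284), both higher in LP (edgeR).

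Immediate-early and stress genes outside the family were mostly higher in M. Of 29 listed, 28 were tested, 16 were higher in M, 3 were higher in LP and 9 did not pass, with a median log2 fold change of -0.78. Over all tested genes 13.8% were higher in M and 10.9% in LP. The smallest adjusted p-values were those of Gadd45g (log2 fold change -4.52, adjusted p = 0.000429) and Gadd45b (-3.09, adjusted p = 0.000449), growth arrest and stress genes, Ppp1r15a (-2.07, adjusted p = 0.000502), a phosphatase subunit of the integrated stress response, and the co-chaperone Dnajb1 (-3.74, adjusted p = 0.000587, edgeR). The 3 genes higher in LP were Ier2 (1.40, adjusted p = 0.00102) and Egr3 (adjusted p = 0.00197), both immediate-early genes, and Cebpb (1.28, adjusted p = 0.00278), a bZIP factor. Egr3 was at most 12.2 CPM in any library. Egr1, also an immediate-early gene, was at 191, 204, 194 and 188 CPM in LP and 45.3, 29.9, 210 and 58.0 CPM in M. It did not pass (log2 fold change 1.17, adjusted p = 0.113, edgeR), with M replicate 3 far above the other M libraries. The immediate-early genes therefore did not share 1 direction, and Fos and Ier2 differed in opposite directions between the same libraries.

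Heat-shock genes differed in their order within M. Hspa1a, which encodes an inducible HSP70, was chosen after its values were seen, as was Hspb1, which encodes a small heat-shock protein. Hspa1a was at 80.7, 61.7, 288 and 97.4 CPM in LP and 584, 346, 8253 and 1309 CPM in M, with reads that may be shared with its near copy Hspa1b. Hspb1 was at 308, 280.2, 1004 and 585 CPM in LP and 2479, 2796, 12492 and 5657 CPM in M. Both were highest in M replicate 3, as Fos was and Jun, Fosl2, Atf3 and Maff were not, and both were higher in M replicate 4 than in M replicates 1 and 2, where Jun, Fos, Fosl2, Atf3 and Maff had the reverse order. Dnajb1, at 1212, 994, 3244 and 972 CPM in M, was also highest in replicate 3 but lowest in replicate 4, as those 5 members were. In LP, replicate 3 was highest for Hspa1a, Hspb1, Jun, Atf3 and Maff alike. The summed level of the stress list was 6058 to 7947 CPM in LP and 16366, 15178, 45393 and 19194 CPM in M, and its part in the levels of the AP-1 members was not tested.

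Markers of cells that the sort should remove were low. Basal markers summed to 22.2 to 53.8 CPM in LP and 9.98, 17.6, 85.3 and 44.1 CPM in M, and immune markers to 41.8 to 56.6 CPM in LP and 11.3 to 46.8 CPM in M. Most of the immune sum was Cd68, at 33.7 to 52.4 CPM in LP and 7.65 to 40.7 CPM in M. Csf1r was at 2.91 to 7.47 CPM. The T cell marker Cd3e was at 0 in all 8 libraries and the leukocyte marker Ptprc at most 0.277 CPM. Endothelial markers were at most 8.48 CPM and adipocyte markers at most 6.38 CPM. Fibroblast markers summed to 7.35 to 39.1 CPM in LP and 135, 174, 24.7 and 21.7 CPM in M replicates 1 to 4. In M replicates 1 and 2 most of this was Dcn, which encodes decorin (132 and 154 CPM). Of the other markers in these libraries, Pdgfra was at 0.562 and 16.3 CPM. The collagen genes were at 0 in both for Col1a1, 0.844 and 0.788 CPM for Col1a2, and 1.83 and 2.63 CPM for Col3a1. The part of fibroblast RNA in the levels of the AP-1 members was not tested.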

How the data were processed

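Bulk RNA-seq of 4 LP and 4 M libraries was analysed. Reads of single-end sequencing were trimmed with cutadapt 4.2 and aligned with Bowtie2 2.3.5.1 (versions from the submitters' processing notes), to mm10 per the study's methods, and the authors deposited raw counts per gene by Entrez ID without normalization. Bowtie2 does not split reads across introns, which affects genes of several exons more than Jun, Junb and Jund. The counting program, its annotation and its use of strand are not given in the sources used here. Of the 24594 IDs, 24570 matched a RefSeq symbol. Groups came from the labels.

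Counts were normalized by TMM, filtered with filterByExpr by fraction and tested with the quasi-likelihood F-test of edgeR 4.0.16 (R 4.3.3), with Benjamini-Hochberg adjustment. Standard errors were taken as the size of the log2 fold change over the root of its F statistic. CPM used TMM library sizes with no added count, log2 CPM a prior count of 2. Gene spans came from RefSeq, and exon lengths from the union of exons in another mouse annotation of the same build. Single values were tested by exact permutation (scipy 1.17.1). No 2 libraries of a fraction agreed within sampling noise (chi-square per degree of freedom at least 12.7), so none was counted as a copy. The test was checked on simulated counts.

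The members and gene lists were chosen with earlier results of these data known. All 9 members were named, and of each other list up to 4 genes with the smallest adjusted p-value. Further genes, among them Zfp36, Zfp36l1, Hspa1a and Hspb1, were chosen after their values were seen. The genes most like the family were the 5 with the highest Pearson r to the mean standardized member profile. Alternatives were RLE and upper-quartile factors, DESeq2 1.42.0, the exact and likelihood ratio tests of edgeR, a minimum of 10 counts in each library or no filter at all, the replicate number as a block, and leaving out each library. An added count of 0.5 for ratios, and ratios without each library, were chosen after seeing the data. A result for a gene of the bZIP list is not reported here.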

Additional observations from a re-analysis of the deposited data

How the results depend on the processing

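Each result was recomputed under 16 alternatives, 8 with all libraries and 8 leaving out a library. Jun, Fos, Fosl2, Atf3 and Maff were higher in M in all 16, with log2 fold changes from -2.25 to -1.87 for Jun, -1.35 to -0.92 for Fos, -1.10 to -0.86 for Fosl2, -3.64 to -2.91 for Atf3 and -2.24 to -1.83 for Maff. Their largest adjusted p-value was 0.0279, for Fosl2 without LP replicate 1. Junb was called in 1 of 16, without M replicate 3 (-0.62, adjusted p = 0.0430, range of adjusted p over its alternatives 0.0430 to 0.235). Jund and Fosl1 were called in none, and Fosl1 could not be tested with at least 10 counts in every library. The number of genes called was 3161 and moved between 2338 and 3791. RLE and upper-quartile factors moved the median log2 fold change of all genes by 0.01 and 0.03. An added count of 0.5 left each of the 6 pair ratios on its side of the threshold. Leaving out a library gave differences from -1.72 to -1.27 for Jun to Junb, -2.44 to -2.05 for Jun to Jund, -2.95 to -1.41 for Fos to Fosl1 and -2.74 to -1.25 for Fosl2 to Fosl1, with no test, since 4 against 3 libraries cannot go below 0.0571.

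LP and M libraries carry the same replicate numbers, and the descriptions of same-numbered libraries also start with a shared number whose meaning is not stated. The correlation of the deviations of same-numbered libraries from their fraction means was 0.113, 0.0618, 0.148 and 0.0844 for replicates 1 to 4. Not every library correlated best with its own number, since M replicate 2 was closer to LP replicate 1 (0.0779), and it is not known whether a pair came from the same mice. With the replicate block 3027 genes were called, 2757 of them shared with the fit without it, and 5 members were called, all higher in M. Junb had a log2 fold change of -0.52 with the block (adjusted p = 0.146, edgeR).

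With 4 libraries a fraction, no exact test of a single value can go below 0.0286. Depth limits Fosb and Fosl1, which held at most 23 and 71 reads in a library.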
